A study of Mus musculus with 17 samples.

Results

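What transformation added to and removed from the Tcf1-deficient thymus was measured by setting 8 thymic lymphomas against 4 tumor-free thymi, all from C57Bl/6 mice of the genotype Tcf1-/- ΔVII/ΔVII. The germline loss of exon VII of the Tcf1 gene on both alleles, and with it the block in T-cell development, was shared by both groups, so the comparison holds what distinguished a lymphoma from a tumor-free thymus of the same genotype. All genes named by a single probe set symbol were described, each by 1 probe set, which gave 18194 genes, of which 13756 passed a filter on low signal and were tested. The 12 arrays were part of a series of 17, and the remaining 5, from Tcf1+/- wt/ΔVII thymi, are given as a reference with no test. The labels name no treatment, age or sex, and the paper states that the tumor-free Tcf1-/- mice were of similar age. In its results mice counted as tumor-bearing by an enlarged thymus, with histology, clonality and transfer as further evidence of lymphoma. The paper describes lymphomas of several thymocyte stages and marks the stage of each arrayed lymphoma in a figure. The stages were not used here. Per the labels RNA came from homogenized thymus tissue, whereas the study's methods name thymocytes as the homogenized material, so how much stroma the samples held by design is not settled. Tumor-free thymi are called Tcf1-/- thymi below, Tcf1+/- thymi are called controls, and every level is a log2 signal.

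Several features of the arrays bear on each value. The arrays of lymphomas 1 and 2, with those of controls 1 and 2, had a narrower signal distribution than the other arrays, with an interquartile range of 2.93 to 3.06 against 3.49 to 3.75 among the other 10 arrays compared, and their 3′ to 5′ difference for Gapdh was 2.63 and 2.33 against at most 0.96. The mean signal of 3 Y-linked genes lay between 7.73 and 8.22 in all 4 Tcf1-/- thymi and at 7.97 and 8.11 in lymphomas 4 and 6, whereas the other 6 lymphomas lay between 3.33 and 3.69. Xist, the RNA of the inactive X chromosome, was high in lymphomas 1, 3, 7 and 8 (10.1 to 12.3) and low in lymphomas 2 and 5 (6.91 and 6.08), which lacked the Y-linked signal as well. With that signal as a covariate the calls fell from 2020 to 387 genes, and since 6 of 8 lymphomas but no Tcf1-/- thymus lacked it, that signal and tumor status cannot be told apart for most genes. Within the Tcf1-/- group, mouse 1 stood apart: its mean over the mitosis genes was 1.60 below the group mean, and it was the highest of the 4 in most immune lists. The targeted gene was not analysed here, so the labels were not checked by it.

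TCF1 is a DNA-binding protein of the TCF/LEF family that acts in early thymocytes downstream of Notch and Wnt signals. A normal thymus holds mainly double-positive thymocytes, which carry CD4 and CD8, on a scaffold of thymic epithelium, with dendritic cells, macrophages and a few B cells and innate lymphocytes. T-lymphoblastic lymphoma is an outgrowth of immature thymocytes arrested at one stage. In such bulk samples fewer cells of a type and less RNA per cell cannot be told apart, and this applies to every difference that follows.

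The lymphomas lost more than they gained. At an adjusted p under 0.05 in limma's moderated test 2020 of the 13756 genes tested were called, 14.7%, of which 1148 were lower (8.35%) and 872 higher (6.34%) than in Tcf1-/- thymi. Counts of called members in the lists below stand against these shares of all genes tested. The median size of a called decrease was 1.71 on the log2 scale, a 3.28-fold change, against 0.83 or 1.78-fold for an increase. A change of at least 2 was reached by 442 lower and 22 higher genes, and a change of at least 4 by 43 lower genes and no higher one. In 861 genes (6.26%) every lymphoma lay below every Tcf1-/- thymus, and in 607 (4.41%) every lymphoma lay above, 10.7% of all genes tested in either direction. The split between directions depended on the scaling and on the arrays used. Centring each array on its median moved the median difference over all genes from 0.10 to 0.24. Of 2989 calls 65.1% were then higher, against 43.2% as deposited. Without lymphomas 1 and 2, whose arrays stood apart, 1262 of 2447 calls were higher and 1185 lower. Lymphomas also varied more among themselves, with a median SD of 0.40 per gene against 0.26 in Tcf1-/- thymi and an SD above 1 in 1041 genes (7.57%) against 431 (3.13%). In 69 of the lower and 10 of the higher genes every array of the dimmer group lay under its own 40th percentile (4.69 to 4.98), and differences named below for such genes are given as lower bounds against that percentile. Where only some arrays of the dimmer group lay there, the plain difference is given. For genes with most of the 8 lymphomas there, the difference with those arrays set to that percentile is added. Without Tcf1-/- mouse 1 the number of calls fell to 1014, of which 283 were higher and 731 lower, and without Tcf1-/- mouse 2 to 1271.

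**Figure D1:**
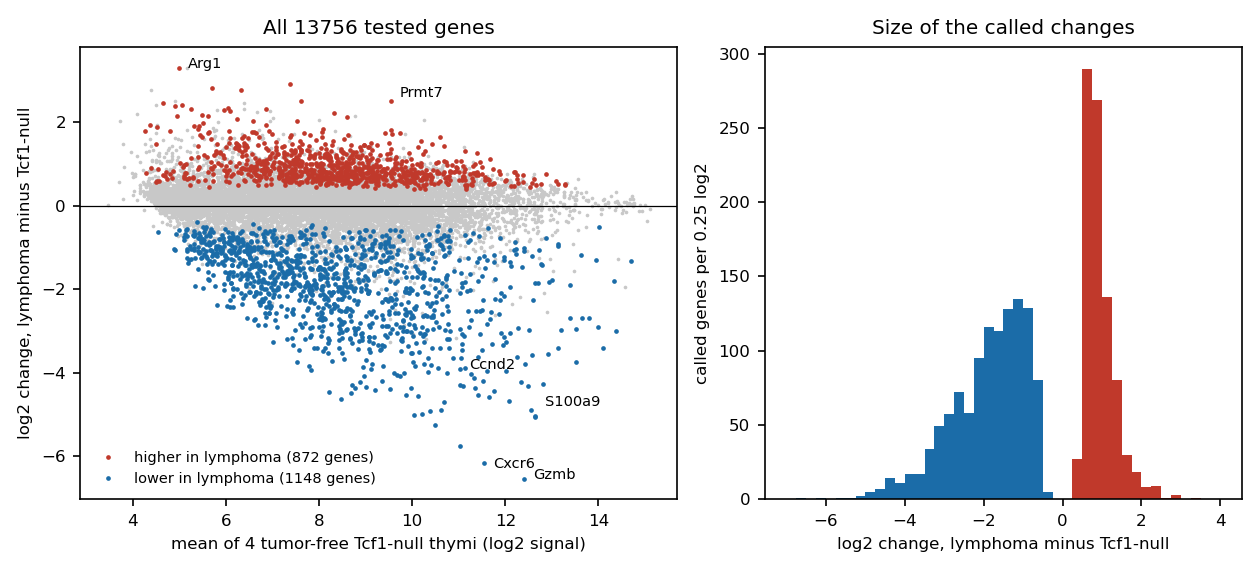
Log2 difference between 8 lymphomas and 4 Tcf1-/- thymi for the 13756 genes tested, against the mean log2 signal in Tcf1-/- thymi (left), and the sizes of the called differences (right). The 1148 lower genes reach -6.53 while the 872 higher genes reach 3.31, with median sizes of 1.71 and 0.83.

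Genes of killer lymphocytes were lower in lymphomas, and Gzmb had the largest decrease of all genes tested. Gzmb, granzyme B, a protease of cytotoxic granules, had a log2 signal of 13.2, 12.4, 11.9 and 12.1 in Tcf1-/- mice 1 to 4 and of 5.005, 5.69 and 6.93 at the lowest, median and highest of the lymphomas. No lymphoma came near the Tcf1-/- range, and the controls ranged from 7.04 to 7.68. The log2 difference was -6.53 ± 0.36 (SE) with adjusted p = 3.02e-07, a 92.4-fold decrease. Klrd1, which encodes the CD94 subunit of NK-cell receptors, stood at 12.01, 11.2, 11.1 and 9.82 in the 4 Tcf1-/- thymi and at 4.53, 5.09 and 6.73 (lowest, median, highest) in the lymphomas, a difference of -5.74 ± 0.41 (SE) with adjusted p = 4.18e-06. Nkg7, a protein of cytotoxic granule membranes, read 11.6, 10.7, 10.6 and 9.85 in Tcf1-/- thymi and 4.74, 6.12 and 6.78 in lymphomas, a difference of -4.70 ± 0.35 (SE) with adjusted p = 5.92e-06. All 8 lymphomas lay below every Tcf1-/- thymus for both, and below the control means of 7.89 and 8.36 as well. Klra5, a Ly49 receptor of NK cells, read 8.04 to 8.96 in Tcf1-/- thymi and lay under the 40th percentile in all 8 lymphomas (3.59 to 4.15), at least 12.9-fold lower.

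All 11 markers of NK cells and innate lymphocytes that could be tested were lower in lymphomas, with a median log2 difference of -3.15, and 10 were called without Tcf1-/- mouse 1. Klrb1b and Klrc1 among them, and Klra5 outside that list, lay under the 40th percentile in all 8 lymphomas. Of the arrays compared, these genes passed the signal filter through the Tcf1-/- thymi. Of 13 cytotoxic effectors 9 were lower and none higher, with a median of -1.99. Fasl, the ligand that triggers Fas-mediated death, fell by 4.30, and Prf1, perforin, fell by 1.99. Fasl lay under the 40th percentile in 7 of 8 lymphomas, and with those set to it fell by 3.84. Gzma, granzyme A, was not called: it read 13.4, 14.2, 14.1 and 13.3 in Tcf1-/- thymi and 12.2 to 13.9 in lymphomas, a difference of -0.50 ± 0.33 (SE) with adjusted p = 0.342. The controls had a mean of 11.8 for it. In lymphomas 4 and 6, which had the Y-linked signal of the Tcf1-/- thymi, Gzmb stood at 6.57 and 6.93, and Klrd1 at 6.73 and 5.55, so the decrease of both was present there.

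The bases ahead of the annotated start of Gzmb and Nkg7 are shown because both genes belong to this group and carry motifs of lymphocyte regulators, with matches to TGTGGTT (Runx) in Gzmb and to TCACACC (T-box, here on the opposite strand) in Nkg7 in capitals. Both runs are the 120 bases before the start in RefSeq annotation of GRCm38.p6, read 5′ to 3′ on the gene's strand, at chr14:56262335-56262454 (minus strand) and chr7:43437018-43437137 (plus strand).
Gzmb: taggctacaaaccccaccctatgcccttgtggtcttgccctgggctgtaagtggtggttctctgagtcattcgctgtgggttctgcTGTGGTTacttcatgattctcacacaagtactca
Nkg7: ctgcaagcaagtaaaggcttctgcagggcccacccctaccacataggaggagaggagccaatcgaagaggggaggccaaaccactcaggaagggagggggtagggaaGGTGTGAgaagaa
The match starts 34 bases before the start in Gzmb and 13 bases before it in Nkg7. In windows from 250 bases before to 50 after each start, searched on both strands, TGTGGTT was present for 4 of 8 NK-cell marker genes with a promoter in the table and 4 of 12 cytotoxic effectors, against 4.70% of the 11012 tested genes that had one. TCACACC was present for 3 of 12 cytotoxic effectors and 1 of 8 NK-cell marker genes, against 4.33%. Over all 909 lower genes with a promoter, TGTGGTT was present for 6.49% and TCACACC for 4.51%, against the same 4.70% and 4.33%. A match describes the letters in the window and was not set against any binding data.

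B-cell transcripts fell as well. Ms4a1, which encodes CD20, stood at 13.2, 11.9, 11.8 and 11.4 in Tcf1-/- mice 1 to 4 and at 6.40, 7.47 and 8.80 at the lowest, median and highest lymphoma. The groups were apart by more than 2 log2 units, and the control mean of 7.64 lay among the lymphomas. Its difference was -4.67 ± 0.45 (SE) with adjusted p = 3.69e-05, a 25.4-fold decrease. Cd79a, a signaling chain of the B-cell receptor, fell by 4.12, and Fcer2a and Cr2, the receptors CD23 and CD21 of mature B cells, fell by 4.36 and 4.21. Cr2 lay under the 40th percentile in 6 of 8 lymphomas, and with those set to it fell by 3.96. Of 11 B-cell markers 10 were lower and none higher, with a median of -3.89 against a median of 0.10 over all genes tested. The exception was Pax5, the B-lineage transcription factor, whose selected probe set read 5.58 to 6.10 in Tcf1-/- thymi and 5.49 to 6.60 in lymphomas. The mean over the list, relative to the Tcf1-/- mean, lay between -3.92 and -2.74 in lymphomas and between -3.82 and -3.11 in controls with the Tcf1-/- thymi above both. Among those 4, mouse 1 was highest (1.06) and mouse 4 lowest (-0.70).

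Plasma cell genes followed less closely. Of 8 markers 5 were lower, with a median of -1.36, but 3 without Tcf1-/- mouse 1. Pou2af1, a coactivator of immunoglobulin transcription, fell by 2.12, and Prdm1, which encodes the plasma cell regulator Blimp-1, fell by 1.42. Mzb1, an endoplasmic reticulum protein of antibody-secreting cells, was called at -2.39 but not without Tcf1-/- mouse 1 (-2.17, adjusted p = 0.068). Sdc1, syndecan 1, went the other way without passing the test: 7.94, 9.18, 7.59 and 7.41 in Tcf1-/- thymi, 7.0, 9.57 and 10.3 in lymphomas and 3.57 to 5.23 in controls. The immunoglobulin segment Ighv14-2, a member of a multigene family whose probes may read related segments, fell by 4.58 ± 0.51.

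Transcripts of macrophages, dendritic cells and neutrophils fell too. Of 14 macrophage and monocyte markers 11 were lower (median -2.62), of 11 dendritic cell markers 10 (median -2.08) and of 9 neutrophil and mast cell markers 7 (median -1.96), with none higher in any list. Ccr2, the chemokine receptor of inflammatory monocytes, read 10.9, 10.9, 10.03 and 9.53 in Tcf1-/- thymi and 5.92, 6.71 and 7.27 at the lowest, median and highest lymphoma, a difference of -3.65 ± 0.29 (SE) with adjusted p = 9.98e-06. Itgam, the integrin CD11b, fell by 3.19, Adgre1, the F4/80 antigen, fell by 2.62, and Cd14, the endotoxin coreceptor, fell by 2.24. Itgam lay under the 40th percentile in 7 of 8 lymphomas, and with those set to it fell by 2.52. Among dendritic cell genes the C-type lectin Cd209a fell by 3.66, Siglech of plasmacytoid cells fell by 2.10 and Xcr1 of cross-presenting cells, under the 40th percentile in all 8 lymphomas, was at least 2.58-fold lower. Macrophage signal was not equally low in every tumor. The mean over that list was -3.89 and -3.81 in lymphomas 1 and 2, whose arrays stood apart, and between -2.52 and -1.47 in the other 6, a range that overlapped the controls (-2.97 to -1.81). The part of the array difference in that spread was not tested.

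Neutrophil transcripts were the least even of these. S100a9, an antimicrobial calcium-binding protein, stood at 11.2, 13.6, 13.4 and 12.4 in Tcf1-/- mice 1 to 4 and at 4.85, 7.62 and 9.90 in the lymphomas, a difference of -5.05 ± 0.97 (SE) with adjusted p = 0.00383. Its highest lymphoma was number 8, at 9.90. Ltf, lactoferrin of neutrophil granules, was low in Tcf1-/- mouse 1 (5.54) and high in the other 3 (11.3, 11.04 and 9.71), so that mouse 1 lay within the lymphoma range of 5.44 to 6.89. Of the 9 genes in that list, 2 were called without mouse 2 or mouse 3, and 3 without mouse 4. The call for Ltf itself was lost without mouse 2 (-2.74, adjusted p = 0.0692) and without mouse 3.

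Genes of antigen presentation were lower as well. H2-Ab1, a chain of the MHC class II molecule I-A, read 13.8, 13.0, 12.9 and 11.98 in Tcf1-/- thymi and 8.32, 9.32 and 10.4 in lymphomas, a difference of -3.54 ± 0.41 (SE) with adjusted p = 0.000124. The groups did not overlap, and the control mean was 10.1. H2-Ob, a class II chaperone subunit of B cells, fell by 4.56, Cd74, the invariant chain, fell by 3.40, and Ciita, the class II transactivator, fell by 2.02. Of 11 class II genes 10 were lower and none higher (median -2.97), and the same number were lower without Tcf1-/- mouse 1. Class I was reduced as well, for fewer genes: of 13 genes of class I presentation 6 were lower, with a median of -0.66, and 0 with the Y-linked signal as a covariate. The list mean was -1.87 and -1.93 in lymphomas 1 and 2, whose arrays stood apart, and between -1.08 and -0.74 in the other 6. H2-K1, a class I heavy chain found on nearly all cells, went from 14.1, 13.6, 13.5 and 13.4 to 9.52, 11.3 and 12.2 (lowest, median, highest), a difference of -2.70 ± 0.43 (SE). Nlrc5, the class I transactivator, fell by 3.21 and Tap1, a peptide transporter subunit, fell by 1.21. B2m, the light chain, read 14.3 to 14.6 in Tcf1-/- thymi and 11.1 to 14.1 in lymphomas and was not called, with a difference of -1.27 ± 0.52 (SE) with adjusted p = 0.119. Class I heavy chains share sequence among their genes, so their single values may hold signal from related genes.

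Interferon-stimulated genes fell nearly as a block. Of 16 members 15 were lower and none higher, with a median of -2.20. Irf7, a transcription factor that amplifies type I interferon, read 11.2, 10.004, 9.98 and 8.88 in Tcf1-/- thymi and 5.96, 6.90 and 7.83 in lymphomas, a difference of -3.13 ± 0.38 (SE) with adjusted p = 0.000164. Ifit1, an RNA-binding antiviral protein, fell by 3.70, and its relative Ifit1bl1 fell by 5.26 ± 0.49. Rsad2, viperin, fell by 2.99 and Gbp3, an interferon-induced GTPase, fell by 2.28. Without Tcf1-/- mouse 1 the number lower was 9 of 16, and with the Y-linked signal as a covariate 3 of 16.

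Chemokines and receptors that recruit and sustain lymphocytes were lower. Ccl5, a chemokine released by activated T and NK cells, stood at 13.5, 12.8, 12.7 and 11.6 in Tcf1-/- mice 1 to 4 and at 6.10, 7.22 and 9.15 in lymphomas, a difference of -5.04 ± 0.56 (SE) with adjusted p = 8.74e-05. Cxcr6, the receptor for Cxcl16, read 12.1, 11.7, 11.03 and 11.3 in Tcf1-/- thymi. In lymphomas it read 4.05, 4.90 and 9.07 at the lowest, median and highest, with lymphoma 4 alone above 6.04. The difference was -6.17 ± 0.75 (SE) with adjusted p = 0.000164. Of 13 chemokine receptors 10 were lower and none higher, with a median of -2.46, and of 18 chemokines 10 were lower, with a median of -1.46. Cxcr5, which guides B cells to follicles, fell by 4.54 and Ccr6, found on B cells and interleukin 17-producing lymphocytes, fell by 3.84. The thymocyte receptors behaved otherwise: Ccr9, which holds thymocytes in the thymus, read 10.8 to 12.8 in Tcf1-/- thymi and 10.1 to 13.0 in lymphomas, and Cxcr4 read 10.2 to 10.7 and 10.4 to 11.7. Neither was called.

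Cytokine receptors were lower for 12 of 16 members, with a median of -1.51 and none higher. Il7r, the receptor for interleukin 7 that supports early thymocytes, read 12.3, 11.96, 11.6 and 11.8 in Tcf1-/- thymi and 7.95, 8.40 and 10.99 in lymphomas. Its range in lymphomas was wide, with lymphoma 5 the highest, yet all 8 stayed below the lowest Tcf1-/- thymus, a difference of -3.04 ± 0.49 (SE) with adjusted p = 0.00109. Il18r1, a chain of the interleukin 18 receptor, fell by 4.90 ± 0.58, with lymphoma 4 again the highest at 8.26. Il2rb, the beta chain shared by the interleukin 2 and 15 receptors, fell by 2.84. Of 14 integrins 7 were lower, with a median of -1.31, among them Itgae, the CD103 chain of intraepithelial lymphocytes, which fell by 3.07. Itga1, also among them, lay under the 40th percentile in all 8 lymphomas and was at least 1.79-fold lower. Of the arrays compared, Itga1 passed the signal filter through the Tcf1-/- thymi, as did Xcr1 above. Of 12 NF-kB feedback and target genes 7 were lower (median -1.43), and 4 without Tcf1-/- mouse 1. Cd40, a receptor of antigen-presenting cells, fell by 2.09, and Birc3, an inhibitor of apoptosis, fell by 1.93. Members of this list are also expressed by the antigen-presenting cells above, and Cd83 is counted in the epithelial list too.

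Transcripts of thymic epithelium were lower in lymphomas. Tbata, expressed by thymic stroma and linked to epithelial cell cycling, read 10.4, 10.6, 10.2 and 11.4 in Tcf1-/- thymi and 4.70, 5.42 and 9.001 in lymphomas, a difference of -4.89 ± 0.64 (SE) with adjusted p = 0.000293. Lymphoma 4 was the highest, at 9.001, and no other lymphoma exceeded 5.81. The 4 probe sets of Tbata spanned differences from -6.24 to -0.77. Psmb11, the thymoproteasome subunit of cortical epithelium, fell by 2.901, Prss16, a thymus-specific serine protease, fell by 2.81, and Ccl25, the chemokine of cortical epithelium that Ccr9 binds, fell by 2.52. Krt8, a keratin of cortical epithelium, stood at 8.64, 8.92, 8.41 and 10.5 in Tcf1-/- thymi and 5.50, 6.13 and 8.16 in lymphomas, a difference of -2.59 ± 0.57 (SE) with adjusted p = 0.00848. The control mean of 7.69 lay between. Of 15 epithelial markers 8 were lower and none higher (median -1.70). The defining transcription factor Foxn1 was near the array's lower range in all groups, 4.60 to 5.02 in Tcf1-/- thymi, 4.42 to 5.24 in lymphomas and 4.43 to 5.35 in controls, and so was Aire of the medulla. Of 9 endothelial markers 2 were lower (Kdr, -0.70, and Cdh5, -0.69), against 8.35% of all genes tested, and 1 was higher (Egfl7, 1.04), and without Tcf1-/- mouse 1 the calls for Cdh5 (-0.55, adjusted p = 0.0515) and Egfl7 (0.87, adjusted p = 0.0774) were lost. Cdh5 lay under the 40th percentile in 6 of 8 lymphomas, and with those set to it fell by 0.50. Of 11 fibroblast markers 1 was higher, 9.09% against 6.34% of all genes tested, and none lower. None of 5 pericyte markers was called.

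Within the fibroblast list the values ran apart between tumors. Its mean lay above every Tcf1-/- thymus in lymphomas 3, 6, 7 and 8 (0.40 to 1.34) and lowest in lymphoma 4 (-0.81). Pdgfrb, a growth factor receptor of mesenchymal cells, read 11.1, 9.83, 10.1 and 10.03 in Tcf1-/- thymi, 8.81, 12.9 and 13.7 in lymphomas and 5.74 to 7.24 in controls, and was not called, with a difference of 2.05 ± 0.78 (SE) with adjusted p = 0.0956. All 12 mice lacking Tcf1 lay above every control. Fbln1, fibulin 1 of the extracellular matrix, rose by 2.07 ± 0.42 (SE), with 5.29 to 7.52 in Tcf1-/- thymi and 7.54 to 9.36 in lymphomas. Col1a1 and Col3a1, the main fibrillar collagens, were not called, with differences of 0.24 and -0.24. Fn1, fibronectin, which macrophages also make, was 13.4, 12.2, 11.5 and 8.98 in Tcf1-/- thymi and 6.62, 7.36 and 7.80 in lymphomas, a difference of -4.20 ± 0.58 (SE). With Tgfbi (-2.91) and Nid1 (-1.61) it made the 3 lower genes of 20 in the matrix list, none of which was higher. Platelet chemokines were lower as well, Ppbp at a difference of -3.40 and Pf4 at -2.67, although the call for Pf4 was lost without Tcf1-/- mouse 1 (-2.07, adjusted p = 0.0515). Ppbp lay under the 40th percentile in 7 of 8 lymphomas, and with those set to it fell by 3.08.

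**Figure D2:**
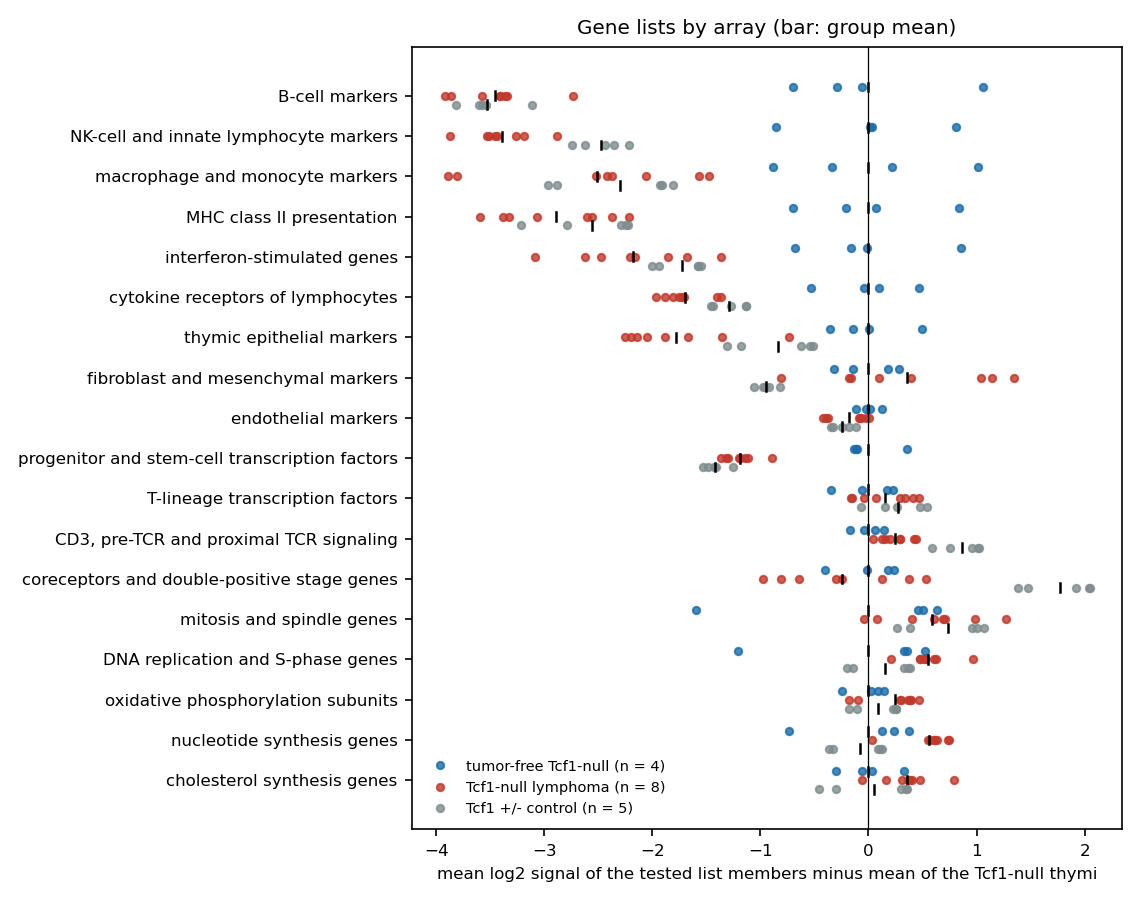
Mean log2 signal of 18 gene lists in each of the 17 arrays, relative to the mean of the 4 Tcf1-/- thymi (horizontal axis), for Tcf1-/- thymi, 8 lymphomas and 5 controls, 1 point per mouse. B-cell, NK-cell and class II lists are low in all lymphomas and all controls, and mitosis and S-phase lists are lowest in Tcf1-/- mouse 1.

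Across the 49 lists described, the mean of every lymphoma lay below every Tcf1-/- thymus in 18 lists and above every Tcf1-/- thymus in 0. The Tcf1-/- thymi had a common order in many of them, with mouse 1 highest and mouse 4 lowest in 20 lists, of which 15 were among those 18. Lymphoma 4 was the highest of the 8 lymphomas in 8 of the 18. Some genes stand in more than one list, so these counts are not independent. Among the lists not described above, 6 of 10 markers of regulatory and mature T cells were lower (3 without Tcf1-/- mouse 1 or 2), 3 of 10 of gamma-delta and innate-like T cells (Ccr6, Blk and Maf), and 4 of 11 complement genes (Cfp, Cfb, C1qa and C1qc). Single calls came from Atf3 (-1.02) among 19 immediate-early genes, Lpl (-2.10) among 5 adipocyte markers, Slc7a7 (-1.11) among 12 amino acid transporters and Rpl14 (0.74) among 16 ribosomal proteins. Each of these single calls was lost without Tcf1-/- mouse 1, as was 1 of the calls that made 2 of 9 erythroid and platelet markers lower. In that list Klf1, an erythroid transcription factor, rose by 0.98 and was called in all 12 analyses that left out 1 array. None of 4 histone genes was called.

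The list counts were smaller with the Y-linked signal as a covariate. The number lower was then 8 of 11 B-cell markers, 9 of 11 NK-cell markers, 8 of 11 class II genes and 8 of 13 chemokine receptors. It was 5 each for dendritic cell markers and cytotoxic effectors, 3 each for macrophage markers, chemokines, cytokine receptors and thymic epithelial markers, and 0 for neutrophil markers. Of the lists with genes called higher, 1 gene each of glycolysis and of S-phase was called higher, and none of mitosis, oxidative phosphorylation, cholesterol synthesis or the CD3 list.

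Transcription factors of progenitors were lower in lymphomas. Mef2c, a factor of lymphoid and myeloid progenitors and of B cells, read 11.1, 9.94, 8.84 and 9.13 in Tcf1-/- thymi and 4.95, 5.51 and 7.11 in lymphomas, a difference of -4.07 ± 0.44 (SE) with adjusted p = 6.66e-05, a 16.8-fold decrease. Every lymphoma lay below every Tcf1-/- thymus, and the control mean was 5.38. Hhex, a homeobox factor of early progenitors and B cells, fell by 3.50, Lmo2, an oncogenic LIM-domain partner of Tal1, fell by 2.99, Nfe2 of the megakaryocyte lineage fell by 2.64 and Cebpa of the myeloid lineage fell by 1.71. Of 14 progenitor factors 7 were lower and none higher, with a median of -1.09. None of 15 T-lineage factors was called in either direction (median 0.12). Bcl11b, needed for T-lineage commitment, read 11.6, 11.9, 12.4 and 12.9 in Tcf1-/- thymi and 12.2, 12.5 and 13.1 in lymphomas, and Gata3 read 8.07 to 9.48 and 8.28 to 10.2. Both tissues thus carried T-lineage markers at high signal, as their thymus label has it.

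One chain of the CD3 complex was called higher in lymphomas. That chain, Cd3d, read 12.8, 12.8, 12.9 and 13.0 in Tcf1-/- thymi and 13.2, 13.7 and 13.99 in lymphomas, with no overlap and a difference of 0.76 ± 0.18 (SE) with adjusted p = 0.0154, and the call was lost without Tcf1-/- mouse 1 (0.73, adjusted p = 0.0585) or mouse 2. Cd3e (0.63, adjusted p = 0.148), Cd3g (-0.18) and Cd247 (-0.26) were not called. Zap70, the kinase recruited to the receptor, rose by 0.61 ± 0.12 and stayed called whichever array was left out. Plcg1, the phospholipase downstream of it, was called at 0.73, but not without Tcf1-/- mouse 1 (0.71, adjusted p = 0.0636) or mouse 2. Of 16 genes of CD3, pre-TCR and proximal signaling these 3 were higher and none lower, with a median of 0.37. Stage genes of double-positive cells were not called in either direction for any of 16 members, with a median of -0.11. Cd8a, the coreceptor chain, read 11.2, 11.3, 11.5 and 10.1 in Tcf1-/- thymi and 6.57, 10.5 and 11.97 in lymphomas, with lymphoma 7 far below the rest, against 12.8 to 13.1 in controls. Rag1, the recombinase, read 10.8 to 13.1 in Tcf1-/- thymi, 7.92 to 13.7 in lymphomas and 13.6 to 14.3 in controls. The list mean lay 1.38 to 2.05 above the Tcf1-/- mean in controls and between -0.97 and 0.53 in lymphomas.

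**Figure D3:**
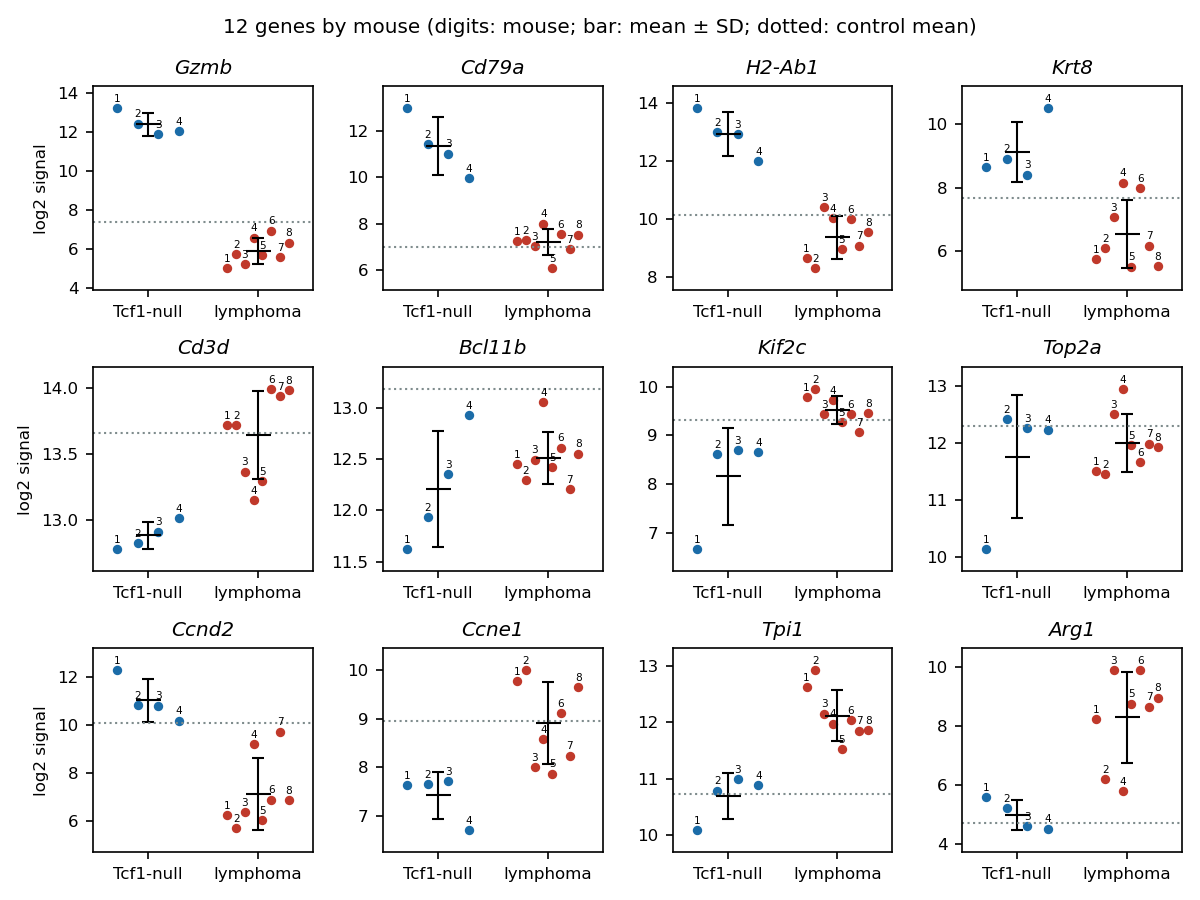
Log2 signal of 12 genes in each of 4 Tcf1-/- thymi and 8 lymphomas, with mean and SD as bars and the mean of 5 controls as a dotted line. Gzmb, Cd79a, H2-Ab1 and Krt8 are lower in every lymphoma, Tpi1, Cd3d and Kif2c are higher in every lymphoma, and Top2a differs mainly in Tcf1-/- mouse 1.

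Far fewer genes gained strongly. Arg1, arginase 1, an arginine-degrading enzyme of liver and of some myeloid cells, had the largest difference: it read 5.60, 5.24, 4.61 and 4.53 in Tcf1-/- thymi and 5.81, 8.71 and 9.89 in lymphomas. Every lymphoma lay above every Tcf1-/- thymus and above the control mean of 4.71, and the difference was 3.31 ± 0.71 (SE) with adjusted p = 0.00766. Tcf1-/- mice 3 and 4 lay under the 40th percentile of their arrays, and with both set to it the difference was 3.19, a 9.13-fold increase. Its spread among lymphomas was wide, from 5.81 in lymphoma 4, just above the highest Tcf1-/- thymus, to 9.89 in lymphoma 3. Prmt7, a protein arginine methyltransferase, read 8.74, 9.61, 9.86 and 9.94 in Tcf1-/- thymi and 10.2, 12.4 and 12.8 in lymphomas, a difference of 2.50 ± 0.46 (SE) with adjusted p = 0.00282. The control mean of 8.83 was below both. Cyp11a1, the enzyme that opens steroid synthesis, rose by 2.39 ± 0.54 (SE), with 4.33 to 5.33 in Tcf1-/- thymi, 5.59 to 9.27 in lymphomas and 6.37 to 8.51 in controls. Ccdc153, a coiled-coil protein gene, rose by 2.17, with 5.28 to 5.86, 6.74 to 8.61 and 7.76 to 8.43 in the same order of groups. For those genes the Tcf1-/- thymi were the lowest of the 3 groups. Wscd1, Sh3rf1 and Fbln1 had lymphomas above both other groups, with control means of 4.92, 6.36 and 5.75 against lymphoma ranges of 6.80 to 8.07, 7.84 to 9.25 and 7.54 to 9.36. Sirt5, a mitochondrial deacylase, rose by 1.94 and Psrc1, a spindle protein, by 2.03.

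The size of these increases varied with the probe set. Of the 15 highest named genes 10 had more than 1 probe set, and in each of them the selected one gave the largest difference. Prmt7 had 3 probe sets with differences from 0.07 to 2.50, Cyp11a1 3 from -0.07 to 2.39, Wdr35 2 from 0.12 to 1.98, and Zscan21 4 from 0.66 to 2.51. Arg1, Tnnt1, Sh3gl3, Ccdc153 and Mn1 had a single probe set. Tnnt1, a slow muscle troponin, was no longer called without Tcf1-/- mouse 1 (1.80, adjusted p = 0.0722), nor was Sh3gl3, an endophilin (2.09, adjusted p = 0.0831). Mn1, a transcriptional coregulator tied to myeloid leukemia, read 4.34, 4.46, 4.33 and 4.33 in Tcf1-/- thymi and 4.60, 6.30 and 7.64 in lymphomas. All 4 Tcf1-/- thymi lay under the 40th percentile, so it was at least 2.87-fold higher, and it lost its call without any 1 of the 4 Tcf1-/- mice (without mouse 1, 1.93, adjusted p = 0.088) or without lymphoma 8.

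**Figure D4:**
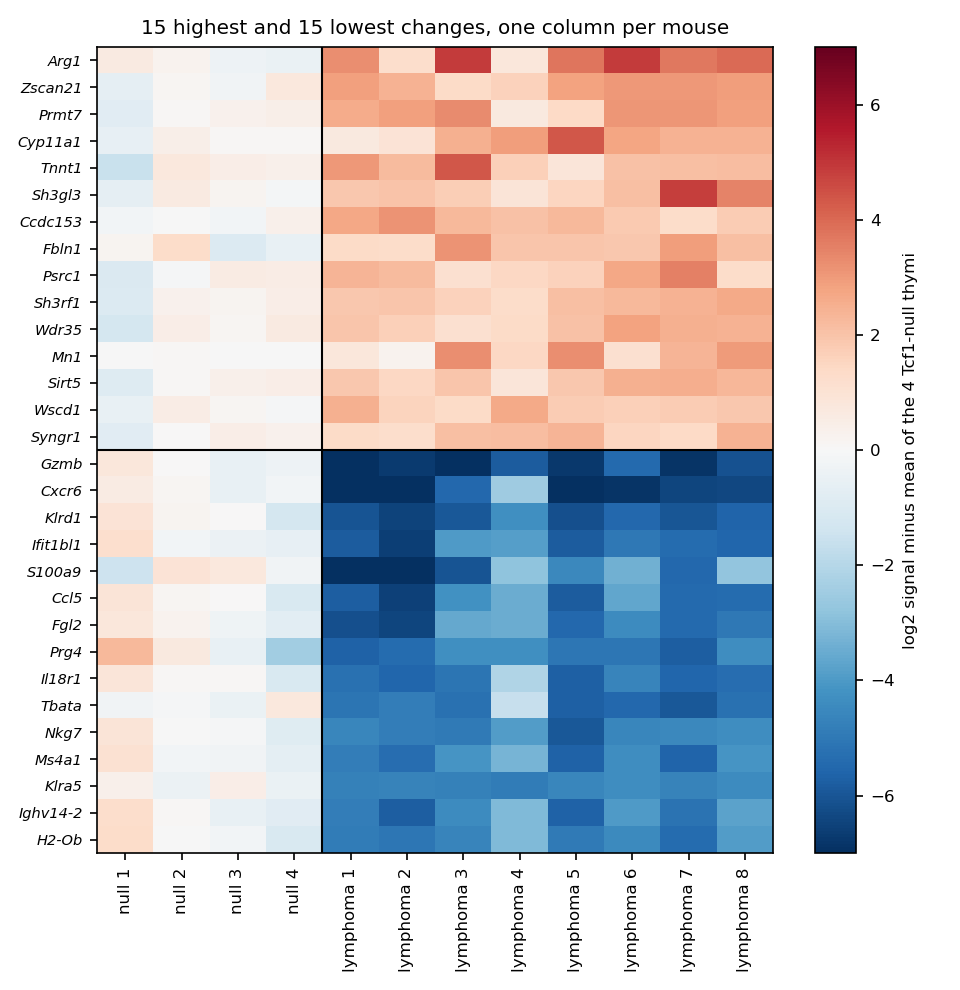
Heat map of the 15 genes with the highest and the 15 with the lowest log2 differences among called genes whose groups did not overlap, in the 4 Tcf1-/- thymi and 8 lymphomas (columns), coloured by log2 signal relative to the gene's mean over the 4 Tcf1-/- thymi. The lowest genes, among them lymphocyte and myeloid transcripts, the stromal gene Tbata and the interferon-stimulated gene Ifit1bl1, have differences of -6.53 to -4.56, and the highest have differences of 1.83 to 3.31.

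Genes of glycolysis were among those called higher. Tpi1, triosephosphate isomerase, stood at 10.1, 10.8, 10.99 and 10.9 in Tcf1-/- mice 1 to 4 and at 11.5, 12.01 and 12.9 in lymphomas. All 8 lymphomas lay above every Tcf1-/- thymus, the control mean was 10.7, and the difference was 1.43 ± 0.26 (SE) with adjusted p = 0.00244, a 2.7-fold increase. Pkm, pyruvate kinase of muscle and proliferating cells, read 11.1, 11.9, 11.4 and 11.1 in Tcf1-/- thymi and 12.2, 12.6 and 13.1 in lymphomas, a difference of 1.27 ± 0.19 (SE) with adjusted p = 0.000759. Both stayed called whichever array was left out. Pgk1, phosphoglycerate kinase, was called at 0.81, and not without Tcf1-/- mouse 1 (0.59, adjusted p = 0.119) or mouse 3. These 3 of 18 genes of glycolysis and the pentose phosphate path were higher and none lower, against 6.34% of all genes tested, with a median of 0.40, and 5 were higher without lymphoma 5, whose list mean (-0.13) was the lowest of the 8.

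Counts in other metabolic lists depended on the scaling. Of 24 subunits of oxidative phosphorylation 5 were higher and none lower (median 0.27), and 11 were higher with each array centred on its median. Ndufv1 of complex I rose by 0.80 ± 0.16 and Cox7a2 of complex IV by 0.60 ± 0.13, and both held without any single array, whereas Ndufb5, Ndufb8 and Ndufs3 did not: without Tcf1-/- mouse 1 they read 0.60, adjusted p = 0.0918, 0.49, adjusted p = 0.14 and 0.49, adjusted p = 0.124. Of 15 cholesterol genes 5 were higher and none lower (median 0.35). Hmgcs1, the enzyme ahead of HMG-CoA reductase, rose by 0.78 ± 0.16 (SE), with 10.03 to 10.4 in Tcf1-/- thymi and 10.5 to 11.3 in lymphomas, but its probe set of highest variance gave -0.28 and was not called. Fdft1, squalene synthase, and Insig1, a sterol sensor, were called at 0.83 and 0.99 and missed the threshold without Tcf1-/- mouse 1 (0.72, adjusted p = 0.0557 and 0.81, adjusted p = 0.0655). Of 19 nucleotide synthesis genes 2 were higher, 10.5% against 6.34% of all genes tested. These were Dck and Gart, at 0.75 and 0.73, and neither was called without Tcf1-/- mouse 1 (0.64, adjusted p = 0.159 and 0.48, adjusted p = 0.169). Their probe sets of highest variance gave -0.60 and -0.51, neither called. With median centring 7 genes of this list were higher. Of 21 ribosome biogenesis genes 1, Gar1 of the small nucleolar complexes, was called at 0.77, and not without Tcf1-/- mouse 1 (0.57, adjusted p = 0.112), while 6 were higher with median centring. As deposited the share higher was 4.76%, under the 6.34% of all genes tested. The counts themselves were unsteady. For oxidative phosphorylation 2 genes were called without Tcf1-/- mouse 1, 2 or 3 or lymphoma 6 or 8, and 3 without lymphoma 7. For cholesterol 2 were called without Tcf1-/- mouse 1 and 3 without mouse 2, 3 or 4. For nucleotide synthesis the count ran from 0, without Tcf1-/- mouse 1, 2 or 3 or lymphoma 1, 2, 4 or 8, to 5 without lymphoma 5.

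Cell cycle genes showed how far a single tumor-free thymus set the difference. Kif2c, a mitotic kinesin, read 6.66, 8.62, 8.69 and 8.66 in Tcf1-/- mice 1 to 4 and 9.06, 9.45 and 9.94 in lymphomas. Mouse 1 lay almost 2 log2 units under the other 3, yet every lymphoma was above all 4, and the difference of 1.36 ± 0.34 (SE) with adjusted p = 0.0173 stayed called without mouse 1 (0.86, adjusted p = 0.0157). Cdc20, an activator of the anaphase-promoting complex, read 9.52, 11.7, 11.7 and 11.7 and 12.2, 12.5 and 12.7, with the same low mouse 1. Its difference was 1.30 ± 0.35 (SE) with adjusted p = 0.0233 with all arrays and 0.77, adjusted p = 0.00917 without mouse 1. Top2a, topoisomerase II of dividing cells, read 10.1, 12.4, 12.3 and 12.2 in Tcf1-/- thymi and 11.5 to 12.9 in lymphomas, with mouse 1 below all of them and the other 3 among them. It was not called, with a difference of 0.23 ± 0.41 (SE) with adjusted p = 0.748. Cdk1, the mitotic kinase, read 8.78, 11.05, 11.05 and 11.3 and 10.2 to 11.8, with a difference of 0.47. It turned to -0.12, adjusted p = 0.864 without mouse 1.

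Over 27 mitosis and spindle genes 3 were higher, 11.1% against 6.34% of all genes tested, and none lower. Their median of 0.53 became 0.17 without Tcf1-/- mouse 1 and 0.22 without the arrays of that mouse and of lymphomas 1 and 2. Ndc80, a kinetochore protein, was the remaining call at 1.01 and was lost without mouse 1 (0.69, adjusted p = 0.16). Over 26 replication and S-phase genes the median of 0.62 became 0.15 without mouse 1, and 5 were higher with each array centred on its median. As deposited 1 of them was higher, 3.85% against 6.34% of all genes tested. Rfc4, a clamp loader subunit, was that gene: it read 8.05, 9.44, 9.51 and 9.43 in Tcf1-/- thymi and 10.1, 10.7 and 10.9 in lymphomas, a difference of 1.51 ± 0.28 (SE) with adjusted p = 0.00288, with a control mean of 9.89. It stayed called without mouse 1 (1.16, adjusted p = 0.0051). No gene of 13 in homologous recombination was called, and their median of 0.47 became 0.07 without mouse 1. Lymphoma 4 had the highest mean of the 8 for mitosis (1.27) and S-phase genes (0.97). Tumor-free Tcf1-/- mice 2, 3 and 4 had mitosis means between 0.46 and 0.64, within the lymphoma range of -0.04 to 1.27.

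Promoters of Kif2c and Cdc20 are shown because they were the mitotic calls that did not rest on a single mouse, and each holds TTTGAA, the core of the cell cycle homology region (CHR), in capitals on either strand. The runs are the 120 bases before the annotated start on the gene's strand in RefSeq GRCm38.p6, chr4:117178773-117178892 for Kif2c and chr4:118437344-118437463 for Cdc20, both on the minus strand.
Kif2c: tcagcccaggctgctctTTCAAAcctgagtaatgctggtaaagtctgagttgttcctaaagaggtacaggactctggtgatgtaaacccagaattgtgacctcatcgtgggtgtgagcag
Cdc20: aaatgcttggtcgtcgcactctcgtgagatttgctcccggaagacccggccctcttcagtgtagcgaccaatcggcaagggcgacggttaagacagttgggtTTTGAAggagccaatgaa
The match begins 103 bases before the start in Kif2c and 18 bases before it in Cdc20. TTTGAA lay in a promoter window of 17 of 23 mitosis genes, 73.9%, against 14.5% of tested genes, 12.7% of higher genes and 16.4% of lower genes. The E2F forms TTTCCCGC and TTTGGCGC lay in 18.2% and 27.3% of 22 S-phase promoters, against 2.19% and 1.09% of tested genes, while 3.31% of higher and 0.99% of lower genes held TTTCCCGC. CTTTGAT, the TCF/LEF form, was in 3.45% of higher and 2.97% of lower genes, against 3.23% of those tested. GTGGGAA (RBPJ) was in 4.97% and 8.36% against 7.19%, and CACGTG (Myc) in 11.6% and 8.91% against 11.1%. CTTTGAT and TTTGAA share the run TTTGA but differ in the base after it, so that run cannot serve both.

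Of 14 cyclins, cyclin-dependent kinases and inhibitors 1 was lower and 1 higher, a share near the 14.7% called among all genes tested. Ccnd2, cyclin D2, read 12.3, 10.8, 10.8 and 10.2 in Tcf1-/- thymi and 5.68, 6.61 and 9.72 in lymphomas, a difference of -3.91 ± 0.73 (SE) with adjusted p = 0.00312, a 15-fold decrease. The tumors ranged widely: lymphomas 4 and 7 read 9.19 and 9.72, and the control mean was 10.1. Ccne1, cyclin E1, read 7.63, 7.65, 7.71 and 6.71 in Tcf1-/- thymi and 7.87, 8.85 and 9.99 in lymphomas, a difference of 1.48 ± 0.42 (SE) with adjusted p = 0.0302, with the call lost without Tcf1-/- mouse 4 (1.24, adjusted p = 0.0901), without any other Tcf1-/- mouse and without lymphoma 6 or 8. Ccnd3, the cyclin of the pre-TCR checkpoint, read 10.9 to 12.2 and 10.97 to 12.5. Cdkn1c, the inhibitor p57, ranged from 6.03 to 9.47 in lymphomas against 5.55 to 6.02 in Tcf1-/- thymi, without a call (adjusted p = 0.0579).

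Genes of the Bcl2 family and p53 targets gave few calls. Bcl2, the anti-apoptotic protein, read 10.5, 10.02, 9.47 and 9.52 in Tcf1-/- thymi and 7.53, 8.59 and 8.89 in lymphomas, a difference of -1.46 ± 0.27 (SE) with adjusted p = 0.00268, and was the only call among 12 Bcl2 family genes. That share of the list, 8.33%, was near the 8.35% called lower among all genes tested. No p53 target of 12 was called in either direction. Of 16 chaperone and unfolded protein response genes 4 were lower (median -0.61), of which 2 remained called without Tcf1-/- mouse 1: Dnajb9, an endoplasmic reticulum cochaperone, fell by 1.61, and Herpud1, of endoplasmic reticulum degradation, fell by 1.50. Xbp1, the transcription factor of this response and of plasma cells, was called at -1.30 and lost its call without that mouse (-1.15, adjusted p = 0.0674). Among 17 leukemia suppressors and chromatin regulators, Hdac7 was the only call, at 0.78 with all arrays and 0.69, adjusted p = 0.116 without Tcf1-/- mouse 1. Atm, the DNA damage kinase, was called at -0.90 among 12 genes of V(D)J recombination and end joining, and lost its call in 10 of 12 analyses that left out 1 array (without Tcf1-/- mouse 1, -0.85, adjusted p = 0.144). The leukemia list thus held 5.88% higher and the recombination list 8.33% lower genes, against 6.34% and 8.35% of all genes tested.

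Of 19 Notch genes 4 were lower and 1 higher, against 8.35% and 6.34% of all genes tested, and with each array centred on its median 2 were lower. Notch1 read 11.5, 12.4, 13.3 and 12.6 in Tcf1-/- thymi and 12.5, 13.0 and 13.3 in lymphomas, a difference of 0.53 ± 0.26 (SE) with adjusted p = 0.196 that was not called, against 10.8 to 11.1 in controls. Jag1, a Notch ligand, fell by 2.28 ± 0.40 and Lfng, which glycosylates Notch, fell by 1.85 ± 0.37, and with Notch2 (-1.11) and the ligand Dll1 (-0.56) they made the 4 lower genes. Jag1 lay under the 40th percentile in 6 of 8 lymphomas, and with those set to it fell by 1.74. Dtx1, a Notch target, was the only one called higher, at 0.83, and was lost in 11 of 12 analyses without 1 array (without Tcf1-/- mouse 2, 0.67, adjusted p = 0.159). Axin2, a feedback target of Wnt signaling, read 6.77, 6.79, 6.80 and 6.78 in Tcf1-/- thymi and 6.79, 7.80 and 10.3 in lymphomas and was not called, with a difference of 1.68 ± 0.65 (SE) with adjusted p = 0.099. With median centring 4 of 13 Wnt genes were higher. As deposited 1 was higher, 7.69% against 6.34% of all genes tested, and none lower. That gene, Tnfrsf19, was called at 2.16 and lost in 9 of 12 analyses without 1 array (without Tcf1-/- mouse 1, 2.16, adjusted p = 0.109).

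Many genes were high or low in single tumors. Between 19 (lymphoma 4) and 118 genes (lymphoma 7) lay at least 2 log2 units above the highest Tcf1-/- thymus, whereas 131 (lymphoma 4) to 602 genes (lymphoma 2) lay as far below the lowest. Lymphomas 1 and 2, whose arrays stood apart, had the most of the latter, 579 and 602, against 131 to 308 in the other 6. Genes at least 2 units above all other 11 arrays numbered 22 in lymphoma 7, 16 in lymphoma 5, 4 each in lymphomas 4 and 8, 3 in lymphoma 3, 2 in lymphoma 6 and none in lymphomas 1 and 2. The same count gave 13 genes in Tcf1-/- mouse 4, 4 in mouse 1 and 0 in mice 2 and 3. Such genes were thus not confined to tumors.

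Examples are given without a test, since they were chosen for their values. Lymphoma 4 alone had Mgam, the intestinal enzyme maltase-glucoamylase, at 9.80, where no other array compared exceeded 4.06. Lymphoma 3 alone had Dsc2, a desmosomal cadherin, at 10.1 against at most 5.74. In lymphoma 8 the kinase gene Rps6ka6 read 9.56 against at most 5.27, and in lymphoma 7 the adenylate kinase Ak5 read 10.2 against at most 6.15. Lymphoma 5 had Oprk1, the kappa opioid receptor, at 11.2 where the next array, a Tcf1-/- thymus, read 7.78, and lymphoma 6 had Rec8, a meiotic cohesin, at 8.49 against 5.52. The widest gaps in lymphomas 1 and 2 were smaller, 1.33 for H1f4, a linker histone, and 1.45 for Vwc2. In most of these genes the controls were low as well, but Cldn4, a claudin that led in lymphoma 3 at 7.66, reached 7.76 in a control, and Dgkeos, at 7.89 in lymphoma 4, reached 10.2 in a control.

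Receptor gene segments also differed from tumor to tumor. They were looked at after their values were seen, and as members of multigene families their probes may read related segments. Trgv4, a gamma chain variable segment, read 12.5, 13.3, 12.6 and 13.2 in Tcf1-/- thymi and 5.40, 11.2 and 12.04 in lymphomas, with lymphoma 7 the lowest, and was not called, with a difference of -2.55 ± 0.99 (SE) with adjusted p = 0.103. Trbv13-2, a beta chain segment, read 6.17 to 9.03 in Tcf1-/- thymi and 5.14 to 10.3 in lymphomas, so that single tumors lay at least as far apart as the groups. Trgv1 was called at -1.85 and lost its call without Tcf1-/- mouse 3 (-1.67, adjusted p = 0.0841), mouse 2 or mouse 4.

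Single tumors also differed by chromosome. In lymphoma 5 the median log2 difference from the Tcf1-/- mean, over all genes of a chromosome and centred on the array's median, was 0.34 on chromosome 18, 0.28 on 17, 0.25 on 15, 0.21 on 3, 0.18 on 1 and 0.17 on 14. On chromosome 18 this came from 310 genes, of which 64.5% lay above 0. The share was 46.3% over the chromosomes that remain when all those just named are left out. The first, middle and last parts of chromosome 18 by position gave medians of 0.43, 0.20 and 0.31. Lymphoma 7 had 0.19 on chromosome 3, and among Tcf1-/- thymi mouse 3 had 0.14 on chromosome 14. Over the 10 arrays outside the set of lymphomas 1 and 2, the other 192 medians lay between -0.10 and 0.08. Lymphoma 2 had 0.23 on chromosome 10 where lymphoma 1 had -0.03, although medians of these arrays ranged from -0.24 to 0.23. DNA copy number was not measured here, and the pattern was noticed in the data before it was summarised.

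**Figure D5:**
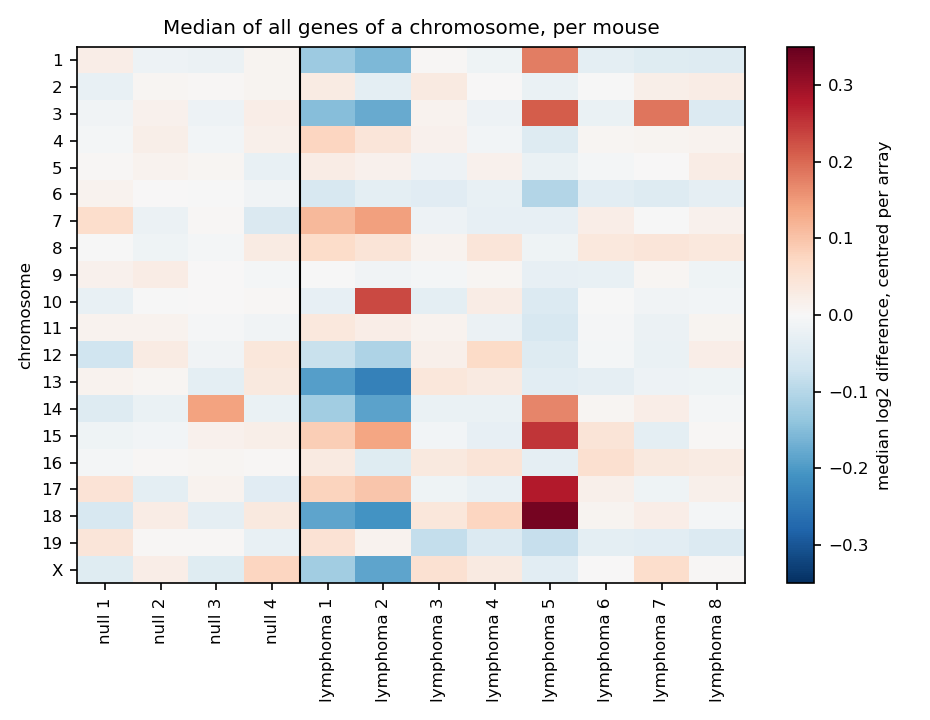
Median log2 difference from the mean of the Tcf1-/- thymi over the genes of each chromosome (vertical axis), centred per array, for the 12 arrays (columns). Lymphoma 5 has medians of 0.17 to 0.34 on chromosomes 1, 3, 14, 15, 17 and 18, the highest of the 12 arrays on each, and lymphoma 7 has 0.19 on chromosome 3.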

How the data were processed

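RNA of homogenized thymus (thymocytes in the study's methods) from separate mice had been hybridised to whole-genome mouse 3′ expression arrays of Affymetrix, and the authors deposited log2 signals made by RMA, per the labels; whether all 17 arrays were normalized together is not given in the sources used here. Of 45101 probe sets, 34958 had a single symbol in the platform annotation, 932 had several and 9147 none; Tcf7, the targeted gene, had no single symbol and was not analysed here. Each gene was represented by the probe set of highest mean over the 17 arrays. Genes above the array's 40th percentile in at least 4 arrays were tested with limma 3.58.1 in R 4.3.3 (lymphoma minus Tcf1-/-, 12 arrays, empirical Bayes, Benjamini-Hochberg over 13756 genes, called at 0.05), after the code was tested on simulated data. Arrays of the dimmer group under their own 40th percentile were set to it, which gave the lower bounds and the differences stated against that percentile. Members, gene lists and tests were chosen with earlier results of these data known, and gene lists are described by counts and medians without a set test. The genes named were the 15 highest and 15 lowest calls without overlap between groups, up to 5 genes of lowest p per list, 3 genes per lymphoma with the widest gap, and label checks. Cd79a, H2-Ab1, Krt8, Cdk1, B2m, the receptor segments and the chromosomes were chosen after their values were seen. The Y-linked signal used 3 genes. Differences between groups rest on 8 and 4 arrays, which limits the precision. Alternatives changed the arrays, filter, probe set, scaling, covariates, variance model and test. Promoter windows came from RefSeq (GRCm38.p6), with a gene counted when any of its windows held the motif.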

Additional observations from a re-analysis of the deposited data

Results flagged for a closer look

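Some single arrays lay far from the rest of their group. Each group of arrays examined was 1 gene in the 4 Tcf1-/- thymi or the 8 lymphomas. In independent groups chance alone gives an unusually large gap in about 1 in 20. These groups share mice, and some genes were chosen after their values were seen, so their count cannot be set against that rate. Of 366 groups 28 held an array whose gap to its neighbor took an unusually large part of the range. Tcf1-/- mouse 1 made up the most of them, with low signals for the cycle genes Kif2c (6.66), Cdc20 (9.52), Top2a (10.1), Cdk1 (8.78), Rfc4 (8.05) and the methyltransferase gene Ezh2 (9.30), and also for Myb (11.3) and Tnnt1 (5.32). The same mouse was high for H2-D1 (14.2), Jag1 (7.64) and Herpud1 (11.1). Lymphoma 4 was high for Cxcr6 (9.07), Klrd1 (6.73), Il18r1 (8.26), Il18rap (6.68), Tbata (9.001), Psmb11 (5.81) and Bcl11b (13.1), and low for Dtx1 (11.6). Lymphoma 7 was low for Cd8a (6.57, next lymphoma 9.56) and for Trgv4 (5.40, next 9.76). Among lymphomas, number 6 was high for Cd209a (5.28) and number 5 low for Cxcr3 (5.22). Among Tcf1-/- thymi, mouse 4 was low for Cd8a (10.1) and Ccne1 (6.71) and high for Hmgcs1 (10.4), mouse 3 was high for Plcg1 (10.2) and mouse 2 for Mn1 (4.46). The part of array quality, cell content or sex in these values was not tested.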

How the results depend on the processing

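Of 101 named genes that fell, 88 stayed called in all 12 analyses that left out 1 array, and of 44 that rose, 22 did. Those analyses called 1014 to 2203 genes, 283 to 1039 of them higher and 731 to 1202 lower. The number called was 387 (62 higher, 325 lower) with the Y-linked signal as a covariate, 1220 (286 higher) with an absolute log2 change of at least 1 as well, and 4502 (2694 higher, 1808 lower) with array weights. With the array set as a covariate 1453 genes were higher and 1269 lower, and with each array centred on its median 1945 and 1044. Without lymphomas 1 and 2 and Tcf1-/- mouse 1, an analysis chosen after seeing the data, 1328 were called (523 higher, 805 lower). Mouse numbers are shared between the groups. With the replicate block, over mice 1 to 4 of each group, 584 genes were called (46 higher, 538 lower), and without the block in the same 8 mice 951 (165 higher). Deviations of same-numbered mice correlated at 0.09, -0.16, -0.19 and 0.02. Among lymphomas 1 to 4, 1 of 4 Tcf1-/- mice was closest to its own number. Among all 8 the closest lymphomas to Tcf1-/- mice 1 to 4 were numbers 6, 8, 2 and 7. The numbers were therefore not taken to pair the mice. Values that reversed were the log2 change of Dck, at -0.0051 with the mean of all probe sets, and the log2 change of Dck (-0.60), the log2 change of Gart (-0.51) and the log2 change of Hmgcs1 (-0.28) with the probe set of highest variance. The causes were not tested. Of 5293 values for named genes under all alternatives, 4808 kept direction and side of the threshold. Signals near the array's lower range, as for Foxn1, bound what a decrease can show.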
